A study of Mus musculus with 12 samples.

Results

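Expression of 40 skeletal muscle genes was examined in bulk RNA-seq of mouse mammary tissue. The members were taken from a list of gene names, and rows that carried a repeated name were summed. All 40 of the 40 names were found, among 23301 gene names that all 12 sample tables hold. Ckm, Tnnc2 and Sln were noticed because of their levels in tumors, so the list was selected on the comparison of tumor with normal tissue. Values of that comparison are therefore given as a description: calls are counted beside those of all genes, but no p-value is given for a member and nothing is read from the calls. The comparison of C646 with DMSO was not used to choose the members and was tested.

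The series holds 4 groups of 3 replicates, all from mice that were 12 weeks old and, per the methods, female. The Normal group is mammary gland of FVB wild type mice without treatment, and each replicate pools abdominal and inguinal glands of 3 mice. The Tumor group is untreated mammary tumor of MMTV-PyVT mice, in which the MMTV promoter drives the polyoma middle T oncogene, and each replicate is a tumor of the thoracic gland of 1 mouse. The DMSO and C646 groups are mammary tumors of MMTV-PyVT mice that were injected with DMSO, as the control, or with C646, an inhibitor of the acetyltransferase p300. The labels give 1 mg/kg for both injections, while the methods give a dose for C646 alone. The largest tumor of each injected mouse was used, and the gland it came from is not given in the sources used here. Transgene, tumor, gland position and pooling change together between Normal and Tumor, so their parts cannot be told apart.

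Skeletal muscle fibers contract when calcium released from the sarcoplasmic reticulum binds troponin C on the thin actin filament and lets myosin of the thick filament pull on it. Fast fibers and slow fibers use different genes for the same parts: the myosin heavy and light chains, the 3 troponin subunits and the calcium pump each have a fast and a slow form. Fast glycolytic fibers burn glycogen and rely on creatine kinase, whereas slow fibers are rich in mitochondria and in the oxygen store myoglobin. The mammary fat pads lie under the skin beside the cutaneous muscle. None of the sample labels names muscle.

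The values are FPKM, fragments per kilobase of transcript scaled to the mapped fragments of the library, so levels of different genes can be compared within a library. The read depth is unknown. Low FPKM values gave a relative depth for some pairs only, in which Tumor 2 and Tumor 3 were 1.62 and 1.53 times as deep as Tumor 1 and the other 5 injected libraries were 0.923 to 1.29 times as deep as DMSO 1. A gene listed at 0 is described as such. As a check of the labels, the 7 epithelial markers summed to 454.9 to 955 FPKM in normal gland and 2426 to 3412 FPKM in tumor. The libraries were not made to keep the strand. Reads of a member and of an overlapping gene on the opposite strand therefore cannot be told apart. Such pairs include Tnnc2 and Ube2c, Ckm and A930016O22Rik, Tnnc1 and Nisch, Atp2a1 and Rabep2, Mb and Apol6, and Myl3 and Pth1r.

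Tumors carried far more skeletal muscle RNA than normal glands. The 40 members summed to 8307, 4360 and 2831 FPKM in Tumor 1, 2 and 3, against 219, 113 and 92.6 FPKM in Normal 1, 2 and 3. Every tumor lay above every normal library for 37 of 40 members, while Myl3 was lower in every tumor and Myh7 and Tnni1 overlapped. The median log2 fold change over all 40 members was 5.45, on log2(FPKM + 0.03125), beside a median of -0.02 over all 13031 genes tested. Of the members, 35 were expressed (1 FPKM or more in 3 or more of the 6 libraries) and were fitted with limma, and all 35 of these were called higher, where 28.8% of all tested genes were called higher and 33.1% were higher in every tumor. Nothing is read from these counts, because tumor levels helped to choose the members, and many of them passed the FPKM filter only through the tumors. In bulk tissue, more muscle cells and more muscle RNA per cell cannot be told apart.

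**Figure D1:**
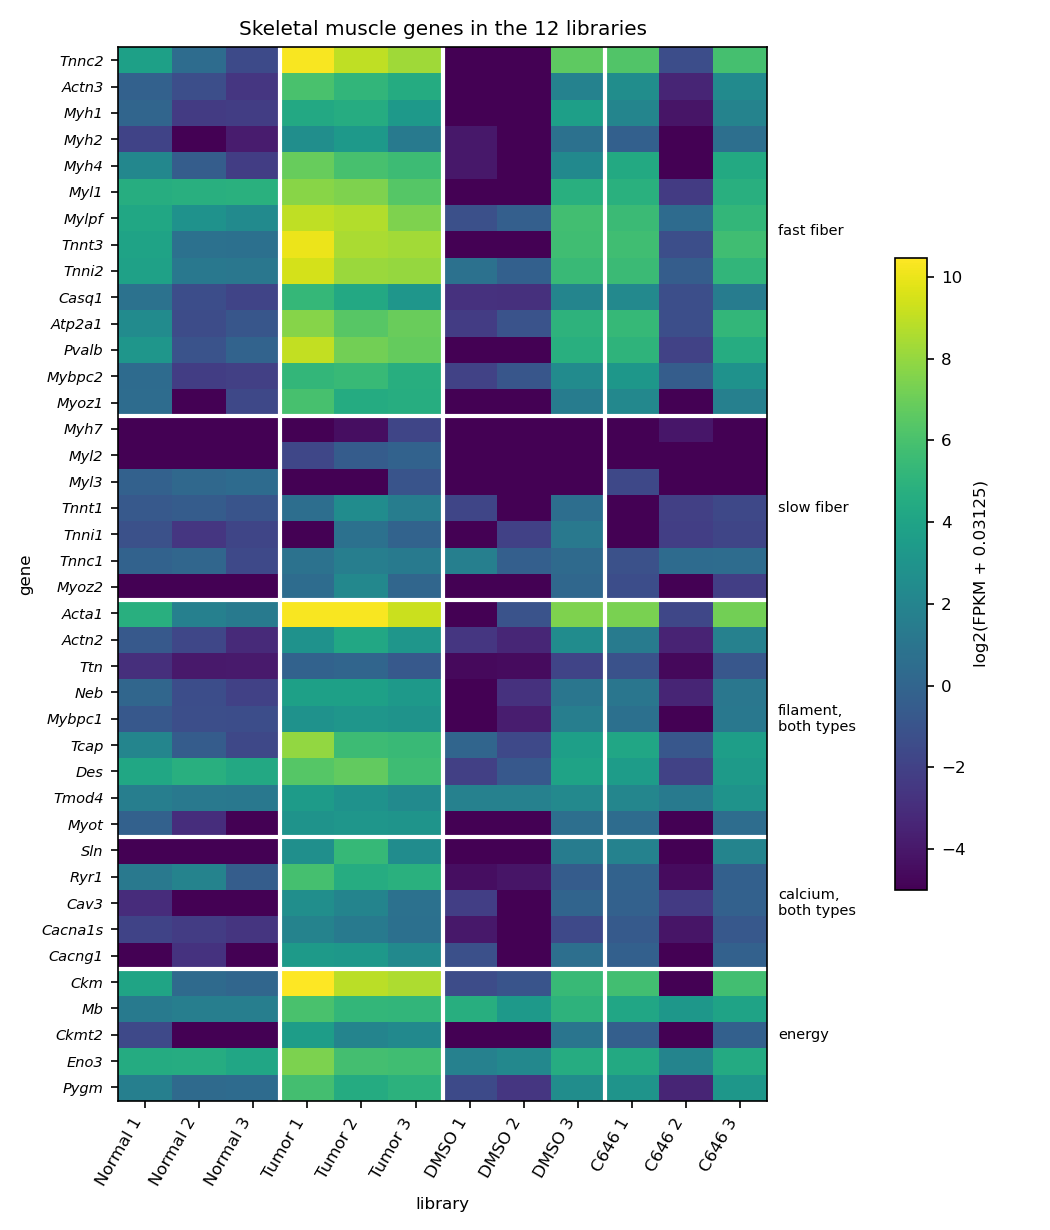
Level of each of the 40 skeletal muscle genes (rows, grouped by role) in the 12 libraries (columns), as log2(FPKM + 0.03125). The 3 tumors are high for most genes outside the slow fiber group, and DMSO 3, C646 1 and C646 3 stand above the other 3 injected tumors.

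Ckm, Tnnc2 and Sln prompted the choice by their tumor levels, so their large rise follows from that choice. Their values are a description, and the SEs given do not allow for the choice. Ckm encodes the muscle creatine kinase, which regenerates ATP from phosphocreatine. It was at 16.1, 1.25 and 1.04 FPKM in the normal glands and at 1416, 469 and 383 FPKM in the tumors, a log2 fold change of 7.82 ± 1.04 (SE, n = 3 per group). Tnnc2, the troponin C of fast fibers, stood at 13.8, 1.37 and 0.314 FPKM in normal glands and 1279, 511 and 307 FPKM in tumors, a log2 fold change of 8.28 ± 1.24 (SE, n = 3 per group). Both genes had their highest normal level in Normal 1 and their highest tumor level in Tumor 1. Sln encodes sarcolipin, a small peptide that inhibits the sarcoplasmic reticulum calcium pump. Sln was listed at 0 in all 3 normal glands and was at 6.44, 41.2 and 5.64 FPKM in Tumor 1, 2 and 3, so no fold is given. Its highest tumor was Tumor 2, not Tumor 1.

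Ckm lies on chromosome 7 at 19404776 to 19422841, Tnnc2 on chromosome 2 at 164777161 to 164779967 and Sln on chromosome 9 at 53850164 to 53854560 (mm10, GENCODE genes). RefSeq promoter windows of 300 bases, which end just after the RefSeq transcription start (GRCm38.p6), were held for 31 of the 40 members. These starts can differ from those of GENCODE. The Ckm window lies inside the GENCODE span given above, and the Myh4 window ends before the GENCODE start of Myh4 at 67238029. Those of 5 members are shown because they cover the most abundant energy, fast troponin, actin and fast myosin genes and, as the contrast, the slow troponin C. Capitals mark an E-box (CANNTG, the letters that MyoD family factors and other helix-loop-helix factors bind), a MEF2 motif or a CArG box, searched on both strands.
Ckm, chr7:19410844-19411143, plus strand: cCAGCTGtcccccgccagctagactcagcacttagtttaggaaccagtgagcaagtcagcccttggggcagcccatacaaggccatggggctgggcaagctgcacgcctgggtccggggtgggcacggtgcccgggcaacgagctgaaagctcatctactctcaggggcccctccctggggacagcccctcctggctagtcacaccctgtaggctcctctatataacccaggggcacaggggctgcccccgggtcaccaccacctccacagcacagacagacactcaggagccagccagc
Tnnc2, chr2:164779685-164779984, minus strand: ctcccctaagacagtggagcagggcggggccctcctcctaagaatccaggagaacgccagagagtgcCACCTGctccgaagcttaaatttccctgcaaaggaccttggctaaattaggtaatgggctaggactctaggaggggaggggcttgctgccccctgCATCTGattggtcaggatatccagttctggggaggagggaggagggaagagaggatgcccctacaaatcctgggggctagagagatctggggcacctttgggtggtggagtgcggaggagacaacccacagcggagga
Acta1, chr8:123894726-123895025, minus strand: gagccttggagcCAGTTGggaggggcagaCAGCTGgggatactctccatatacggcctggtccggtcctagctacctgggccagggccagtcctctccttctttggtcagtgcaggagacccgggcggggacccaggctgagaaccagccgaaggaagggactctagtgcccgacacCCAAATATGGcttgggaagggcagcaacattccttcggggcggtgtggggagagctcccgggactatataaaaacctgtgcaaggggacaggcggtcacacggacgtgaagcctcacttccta
Myh4, chr11:67237562-67237861, plus strand: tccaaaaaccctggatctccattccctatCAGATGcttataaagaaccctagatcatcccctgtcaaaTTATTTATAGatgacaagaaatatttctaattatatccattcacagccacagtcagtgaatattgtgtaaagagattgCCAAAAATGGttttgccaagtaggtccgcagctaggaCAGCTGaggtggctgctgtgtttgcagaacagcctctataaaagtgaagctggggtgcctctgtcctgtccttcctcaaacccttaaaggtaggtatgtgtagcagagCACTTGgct
Tnnc1, chr14:31208062-31208361, plus strand: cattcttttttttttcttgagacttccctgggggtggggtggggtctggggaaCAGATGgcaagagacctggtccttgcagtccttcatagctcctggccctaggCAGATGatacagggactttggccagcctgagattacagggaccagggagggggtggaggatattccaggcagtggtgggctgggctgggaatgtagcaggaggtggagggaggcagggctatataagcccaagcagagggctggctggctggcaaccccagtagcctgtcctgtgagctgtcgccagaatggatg
The E-box letters occurred in windows of 28 of the 31 members (90.3%) and of 75.0% of all 27025 genes with a window. The form CAGCTG, which is counted among the E-boxes, occurred in 18 of 31 (58.1%) against 18.3% of all genes. A MEF2 motif was present for 5 of 31 (16.1%) against 3.70%, and a CArG box, the motif of serum response factor, for 3 of 31 (9.68%) against 1.81%. In the printed windows, the actin gene Acta1 and the fast myosin gene Myh4 each held a CArG box, Myh4 alone held a MEF2 motif, and Tnnc1 and Tnnc2 held 2 E-boxes each. These matches are letters in a window and were not tested as binding sites.

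All 14 fast fiber genes passed the FPKM filter, with a median log2 fold change of 6.45. Each was higher in every tumor than in any normal gland, as were 33.1% of all genes tested. Nothing is read from this count, because tumor levels helped to choose the members. The summed level of these 14 genes was 4825, 2195 and 1530 FPKM in Tumor 1, 2 and 3. In Normal 1, 2 and 3 it was 113, 42.4 and 40.2 FPKM. The fast troponins led the group. Tnnt3, the fast troponin T that ties the complex to tropomyosin, was at 15.8, 1.65 and 1.60 FPKM in normal gland and 1038, 369 and 326 FPKM in tumor. Tnni2, the fast inhibitory troponin I, was at 14.3, 2.27 and 2.18 FPKM in normal gland and 709, 282 and 258 FPKM in tumor. With Tnnc2, the whole fast troponin complex was thus highest in Tumor 1 and in Normal 1.

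Among the fast myosins, Myh4, the heavy chain of the fastest fibers (type IIB), was at 4.52, 0.711 and 0.184 FPKM in normal gland and 115, 62.3 and 49.2 FPKM in tumor. Myh1, the heavy chain of type IIX fibers, was at 0.984, 0.168 and 0.185 FPKM in normal gland and 20.5, 24.2 and 10.5 FPKM in tumor. Myh2, the heavy chain of type IIA fibers, was at 0.238, 0 and 0.0383 FPKM in normal gland and 6.09, 10.3 and 2.45 FPKM in tumor. These 3 genes lie side by side on chromosome 11 in a cluster of 6 myosin heavy chain genes that spans 293287 bp, and they are close copies, so how reads were divided among them is uncertain. Mylpf, the fast regulatory light chain, was at 18.4, 7.28 and 5.30 FPKM in normal gland and 506, 411 and 175 FPKM in tumor. Myl1, the fast essential light chain, stood apart in normal gland, where it was at 25.2, 27.2 and 28.1 FPKM and was not highest in Normal 1. Its tumor levels were 207, 175 and 83.5 FPKM. Myl1 had 2 rows in the normal and tumor tables, of which the first was at 7.05, 8.22 and 13.1 FPKM in normal gland and 0, 2.54 and 0 FPKM in tumor.

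The fast calcium genes behaved like the fast filament genes. Atp2a1, the calcium pump of fast fibers, was at 5.44, 0.345 and 0.531 FPKM in normal gland and 203, 87.6 and 123 FPKM in tumor. Pvalb, the calcium buffer parvalbumin, was at 8.69, 0.458 and 0.901 FPKM in normal gland and 537, 142 and 112 FPKM in tumor. Casq1, the main calcium store of the fast reticulum, was at 1.73, 0.354 and 0.251 FPKM in normal gland and 40.1, 20.3 and 8.61 FPKM in tumor. The remaining fast genes, Actn3 (the fast alpha-actinin of the Z-disc), Mybpc2 (the fast myosin-binding protein C) and Myoz1 (a calsarcin of the Z-disc), had log2 fold changes of 6.59, 6.41 and 7.11. Only Mybpc2 of these 3 was highest in Tumor 2, at 42.7 FPKM.

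The slow fiber genes stayed low in every library. Their 7 levels together came to 2.36 to 3.03 FPKM in normal glands and 4.83 to 15.8 FPKM in tumors, with a median log2 fold change of 1.81. Only Tnnt1, Tnnc1 and Myoz2 passed the FPKM filter. Tnnc1, the slow and cardiac troponin C, was at 0.895, 1.06 and 0.299 FPKM in normal gland and 1.72, 3.05 and 2.60 FPKM in tumor. Tnnt1, the slow troponin T, was at 0.592, 0.688 and 0.481 FPKM in normal gland and 1.46, 5.73 and 2.95 FPKM in tumor. For both genes every tumor lay above every normal gland, with Tumor 2 the highest. Myoz2, the calsarcin of slow fibers and heart, was listed at 0 in all 3 normal glands and was at 1.38, 4.65 and 1.06 FPKM in the tumors.

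The other slow genes failed the FPKM filter, and Myh7 and Myl2 stayed under 1 FPKM in every library. Myh7, the heavy chain of slow fibers, was listed at 0 in every normal gland and in Tumor 1 and was at 0.0152 and 0.268 FPKM in Tumor 2 and 3. Myl2, the slow regulatory light chain, was listed at 0 in the normal glands and was at 0.273, 0.678 and 0.873 FPKM in the tumors. Myl3, the slow essential light chain, ran the other way, at 0.842, 1.14 and 1.32 FPKM in normal gland and 0, 0 and 0.478 FPKM in tumor. Tnni1, the slow troponin I, overlapped between the groups, at 0.413, 0.141 and 0.267 FPKM in normal gland and 0, 1.69 and 0.903 FPKM in tumor. In all, 6 of the slow genes thus had a higher mean in tumor and Myl3 a lower one.

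All 9 filament genes that fast and slow fibers share were higher in every tumor, as were 33.1% of all genes tested. The median log2 fold change of these 9 was 4.71. Acta1, the skeletal muscle actin of the thin filament and the gene of the highest mean level, was at 26.8, 3.24 and 2.46 FPKM in normal gland and 1289, 1261 and 606 FPKM in tumor. Tcap, the titin cap of the Z-disc, was at 4.07, 0.686 and 0.288 FPKM in normal gland and 253, 49.3 and 44.8 FPKM in tumor. Neb, the giant nebulin that runs along the thin filament, was at 1.06, 0.359 and 0.213 FPKM in normal gland and 14.1, 13.6 and 9.70 FPKM in tumor. Tumor levels of Neb, Mybpc1 and Myot differed less among the 3 tumors than those of Tcap. Mybpc1, a myosin-binding protein C, was at 7.24, 8.53 and 7.61 FPKM in tumor, and Myot, the Z-disc protein myotilin, at 7.53, 8.62 and 7.94 FPKM.

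Smaller differences were seen for Des and Tmod4. Des encodes desmin, the intermediate filament of skeletal, cardiac and smooth muscle alike. It was at 18.8, 27.3 and 20.3 FPKM in normal gland and 82.5, 106 and 50.5 FPKM in tumor. Tmod4, which caps the thin filament, was at 2.98, 2.39 and 2.30 FPKM in normal gland and 11.3, 7.24 and 5.15 FPKM in tumor. Ttn, the giant titin, stayed under 1 FPKM in every library and was not tested. It was at 0.0988, 0.0335 and 0.0379 FPKM in normal gland and 0.895, 0.981 and 0.589 FPKM in tumor. Actn2, the alpha-actinin of all striated muscle, was at 0.594, 0.274 and 0.0824 FPKM in normal gland and 7.42, 19.2 and 8.82 FPKM in tumor.

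Of the calcium handling and membrane genes, all 5 were higher in every tumor, as were 33.1% of all genes tested. The median log2 fold change of these 5 was 6.13. Ryr1, the calcium release channel, had the highest mean of these genes in both groups, at 2.36, 3.68 and 0.701 FPKM in normal gland and 59.2, 24.1 and 27.8 FPKM in tumor. Cacna1s, the voltage sensor that opens Ryr1, was at 0.240, 0.182 and 0.135 FPKM in normal gland and 3.69, 2.44 and 1.59 FPKM in tumor. Cacng1, a subunit of the same channel, was at 0, 0.117 and 0 FPKM in normal gland and 10.7, 9.30 and 5.07 FPKM in tumor. Cav3, the caveolin of muscle membranes, was at 0.0912, 0 and 0 FPKM in normal gland and 6.12, 3.97 and 1.65 FPKM in tumor. Sln stood apart from the pump it inhibits, since its level was 3.17%, 47.0% and 4.58% of that of Atp2a1 in Tumor 1, 2 and 3.

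The 5 energy genes differed widely in size of change, with a median log2 fold change of 4.31. Beside Ckm, the mitochondrial creatine kinase Ckmt2 was at 0.300, 0 and 0 FPKM in normal gland and 12.3, 3.90 and 4.97 FPKM in tumor. Pygm, the muscle glycogen phosphorylase that starts glycogen breakdown, was at 3.15, 1.22 and 1.29 FPKM in normal gland and 58.2, 22.5 and 31.02 FPKM in tumor. Eno3, the muscle enolase of glycolysis, was at 23.0, 23.6 and 17.7 FPKM in normal gland and 168, 58.2 and 53.9 FPKM in tumor. Mb, the oxygen-binding myoglobin, was at 2.504, 3.06 and 3.07 FPKM in normal gland and 64.0, 38.4 and 36.8 FPKM in tumor. Eno3 and Mb, like Myl1 and Des, had no peak in Normal 1. Tumor 1 was the highest tumor for all 5 genes.

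The muscle RNA in the tumors was of the fast type by each of the 7 pairs compared, which left out the calcium pump. For 7 pairs of a slow and a fast form (myosin heavy chain, both light chains, the 3 troponins and calsarcin), the slow form's share of the summed FPKM was computed in libraries where the pair reached at least 1 FPKM. The median slow share over the 7 pairs was 0.0538%, 0.595% and 0.568% in Tumor 1, 2 and 3, a mean of 0.406% ± 0.305 (SD, n = 3). In Normal 1, the normal library in which all 7 pairs reached 1 FPKM, it was 2.81%, and over the 5 and 4 pairs that could be used in Normal 2 and 3 it was 5.86% and 7.70%. These medians did not overlap between tumor and normal, but in Normal 2 and 3 the usable troponin pairs summed to under 2.5 FPKM each, against 28.4 and 29.4 FPKM for the essential light chains. No test was made, since the shares are built from the members. Atp2a2, the slow form of the calcium pump, is not a member and was not paired with Atp2a1. It was at 42.3, 37.2 and 51.5 FPKM in Normal 1, 2 and 3 and 35.8, 43.6 and 43.1 FPKM in Tumor 1, 2 and 3. Atp2a2 thus did not rise with the muscle genes, and its source was not tested.

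**Figure D2:**
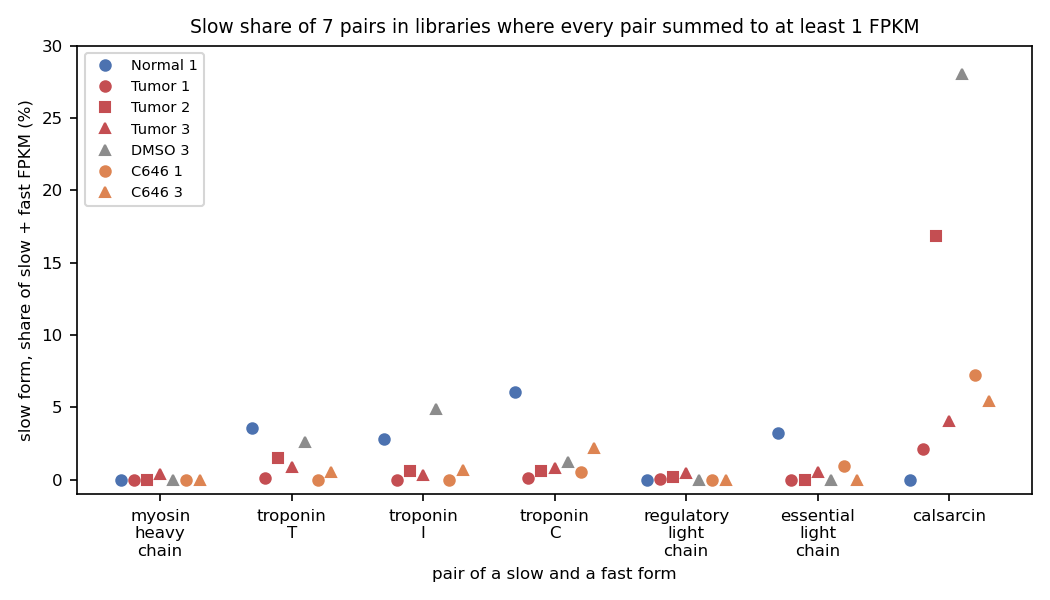
Share of the slow form in the summed FPKM of the slow and fast forms (vertical axis, %) for 7 pairs of genes (horizontal axis) in the 7 libraries where every pair reached at least 1 FPKM. Shares lie under 7% except for calsarcin, where Tumor 2 reached 16.8%, DMSO 3 28.0% and C646 1 7.23%.

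Calsarcin was the pair with the largest slow share in each tumor, at 2.16%, 16.8% and 4.04% in Tumor 1, 2 and 3. In the troponin T pair the slow share was 0.140%, 1.53% and 0.896% in the 3 tumors, and in the troponin C pair 0.135%, 0.595% and 0.842%. Tumor 2 thus had the highest slow share of calsarcin, troponin T and troponin I, and Tumor 1 the lowest for every pair apart from the essential light chain, where Tumor 1 and Tumor 2 were both at 0.

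The adult myosin heavy chain genes were dominated by Myh4. Myh4 made up 81.2%, 64.4% and 78.8% of the summed FPKM of Myh1, Myh2, Myh4 and Myh7 in Tumor 1, 2 and 3. Myh1 made up 14.5%, 24.98% and 16.8%, Myh2 4.30%, 10.7% and 3.92%, and Myh7 0%, 0.0157% and 0.429%. In Normal 1 the shares were 78.7% for Myh4, 17.1% for Myh1 and 4.14% for Myh2, all within the range of the 3 tumors, while Normal 2 and 3 held under 1 FPKM of the 4 genes together. The 3 untreated tumors differed among themselves, with a larger part of Myh1 and Myh2 in Tumor 2.

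**Figure D3:**
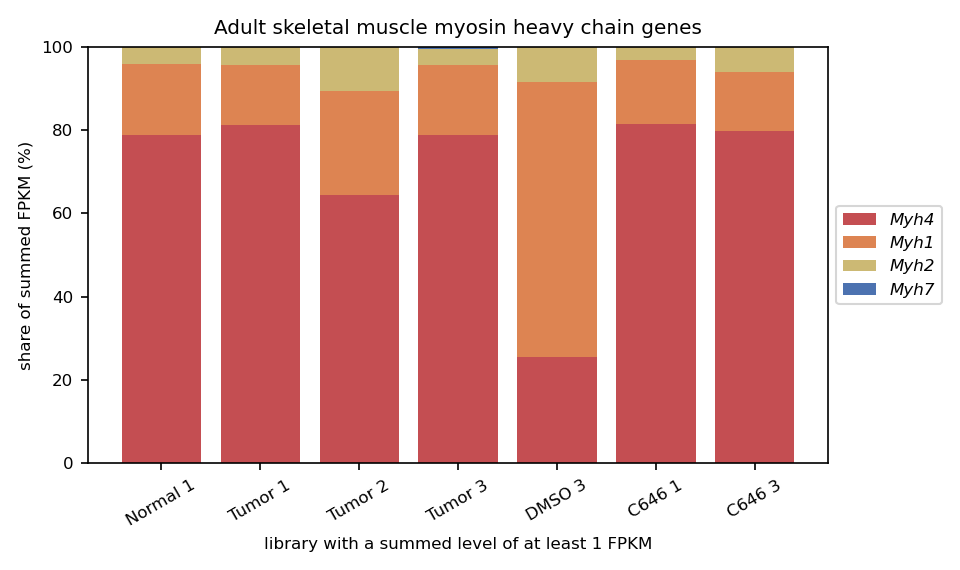
Share of Myh4, Myh1, Myh2 and Myh7 in their summed FPKM (vertical axis, %) in the 7 libraries where the sum was at least 1 FPKM. Myh4 makes up 64.4% to 81.6% in 6 libraries and 25.4% in DMSO 3, where Myh1 makes up 66.1%, and Myh7 is at or near 0 in all 7.

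The members also varied together within groups. Normal 1 was the highest normal library for 27 of the 40 members, Normal 2 for 6 and Normal 3 for 3, with 4 listed at 0 in all of them. At least 1 FPKM was reached by 21, 15 and 12 members in Normal 1, 2 and 3, and by 35, 36 and 35 members in Tumor 1, 2 and 3. Tumor 1 was the highest tumor for 24 members, among them Ckm and the fast troponins, and Tumor 2 for 13, among them Sln, Actn2, Myh1, Myh2, Mybpc1, Mybpc2 and 4 slow genes. Tumor 3 was highest for Myh7, Myl2 and Myl3 only.

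Other genes known from skeletal muscle moved the same way for the most part. Of 24 further muscle genes, 22 were tested, of which 18 were called higher and 2 lower in tumor. Over all tested genes, 28.8% were called higher and 31.7% lower. The median log2 fold change over the 24 muscle genes was 4.52. Pgam2, the muscle phosphoglycerate mutase, was at 3.92, 2.71 and 1.78 FPKM in normal gland and 152, 60.9 and 31.6 FPKM in tumor. The lower ones were Srpk3, a muscle kinase that was at 4.88 to 6.37 FPKM in normal gland and 0.194 to 0.890 FPKM in tumor, and Cox8b, a cytochrome oxidase subunit that brown fat also makes. Cox8b was at 1036, 2304 and 1521 FPKM in normal gland and 274, 21.4 and 33.1 FPKM in tumor.

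The myogenic regulators and developmental myosins were low beside these adult genes. Myf6, the myogenic factor that persists in adult fibers, was at 0.101, 0 and 0 FPKM in normal gland and 1.94, 3.40 and 0.520 FPKM in tumor. Myod1, the master regulator of muscle fate, was listed at 0 in normal gland and was at 1.30, 0.297 and 0.363 FPKM in tumor. Myf5 was listed at 0 in all 12 libraries, and Pax7, which marks muscle stem cells, did not exceed 0.0459 FPKM. Of the 10 genes found on this list of 12, 1 was tested, Mef2c, which was called lower in tumor. Myh3 and Myh8, the embryonic and neonatal heavy chains, together came to 0.260 to 1.99 FPKM in tumor. The 8 cardiac genes found did not rise as a list to the extent of the members, with a median log2 fold change of 0.381. They summed to 5.897 to 11.36 FPKM in normal gland and 5.556 to 15.86 FPKM in tumor. Myl4 was at 5.05, 10.96 and 7.68 FPKM in normal gland and 4.12, 11.85 and 2.31 FPKM in tumor. Of these genes, 2 were tested and 1, Tnnt2, was called higher in tumor. Tnnt2 was at 0.29 to 0.56 FPKM in normal gland and 1.17 to 4.02 FPKM in tumor. Myh6 did not exceed 0.0586 FPKM and Myl7 0.205 FPKM in any library.

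Markers of other cell types changed along with the muscle genes between normal gland and tumor. All 10 white adipocyte genes were called lower in tumor (31.7% of all tested genes were), with sums of 27330 to 34420 FPKM in normal gland and 2514, 126 and 144 FPKM in Tumor 1, 2 and 3. Tumor 1 thus had the most adipocyte RNA of the 3 tumors as well as the most muscle RNA. All 8 brown adipocyte genes were called lower, from sums of 2035 to 4621 FPKM in normal gland to 61.9 to 541 FPKM in tumor. Of 10 smooth muscle and myoepithelial genes, 7 were called lower and 2, Des and Smtn, higher, with sums of 337 to 465 FPKM in normal gland and 145 to 245 FPKM in tumor. Of 7 epithelial genes, 5 were called higher. Over all tested genes, 28.8% were called higher. The part of these cell types in the muscle values was not tested.

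In the injected tumors, the skeletal muscle genes did not separate C646 from DMSO. All 40 members overlapped between the groups. Of the 27 members that were expressed by the same rule, limma called 0 after adjustment and 0 had an unadjusted p under 0.05, where 0.0% of 12083 genes were called, 384 had an unadjusted p under 0.05, and the smallest adjusted p was 0.99. Over all genes tested, 4.04% were higher and 4.52% lower in every C646 than in every DMSO library. The median log2 fold change over the 40 members was 1.45, beside -0.02 over all genes tested, and 35 members had a positive value. The median was 3.128 without DMSO 3, 3.135 without C646 2 and 0.66 to 0.83 without any 1 of the other 4 libraries. By role the medians were 2.51 for the fast fiber genes, 0.00 for the slow fiber genes, 1.48 for the shared filament genes, 1.47 for the calcium genes and 1.13 for the energy genes. These medians rest on libraries that differed more within each group than between the groups.

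Ckm was at 0.345, 0.475 and 42.9 FPKM in DMSO 1, 2 and 3 and at 55.4, 4.31e-05 and 54.1 FPKM in C646 1, 2 and 3. The log2 fold change of Ckm was 1.17 ± 3.21 (SE, n = 3 per group; limma adjusted p = 0.993). Without DMSO 1 it became -0.04. Tnnc2 was listed at 0 in DMSO 1 and 2 and was at 99.1 FPKM in DMSO 3, against 76.5, 0.360 and 59.0 FPKM in C646 1, 2 and 3. Its log2 fold change was 4.72 ± 3.50 (SE, n = 3 per group; limma adjusted p = 0.99). In each group at least 1 library was high and at least 1 was at or near 0.

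Sln was listed at 0 in DMSO 1 and 2 and in C646 2, and was at 2.76 FPKM in DMSO 3 and 3.61 and 3.96 FPKM in C646 1 and 3. Its log2 fold change was 2.46 ± 2.56 (SE, n = 3 per group; limma adjusted p = 0.99). Acta1 was at 0, 0.459 and 178 FPKM in DMSO 1, 2 and 3 and at 161, 0.271 and 142 FPKM in C646 1, 2 and 3. The log2 fold change of Acta1 was 3.77 ± 3.60 (SE, n = 3 per group; limma adjusted p = 0.99). These genes repeated the pattern of Ckm and Tnnc2. Ryr1 was at 0.0146, 0.0267 and 0.673 FPKM in DMSO and 0.897, 0.0118 and 0.800 FPKM in C646, too low to be tested.

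**Figure D4:**
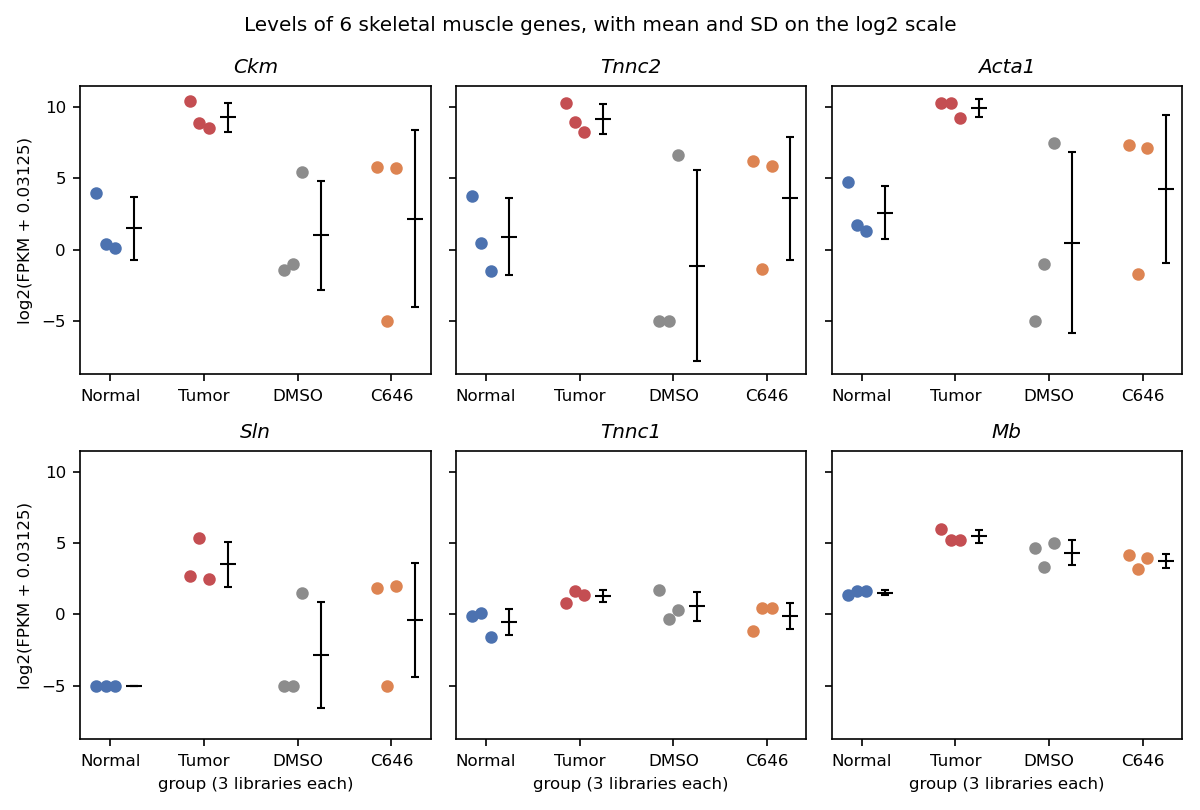
Level of 6 genes as log2(FPKM + 0.03125) on the vertical axis in the 4 groups, with 1 point per library and the mean and SD of the 3 values in black. For Ckm, Tnnc2, Acta1 and Sln, 1 DMSO and 2 C646 libraries lie far above the others of their group, while Tnnc1 and Mb show no such gap.

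The 3 libraries with high muscle levels were DMSO 3, C646 1 and C646 3. They were the 3 highest of the 6 injected tumors for 33 of the 40 members, and for 434 of the 12083 genes tested (3.59%). These libraries were picked because the members were high in them, so the count is a description only. The 40 also include members that failed the FPKM filter. Of the 27 members tested, only 6 still passed it when DMSO 3, C646 1 or C646 3 was left out. The members summed to 718, 690 and 615 FPKM in DMSO 3, C646 1 and C646 3, and to 41.0, 23.8 and 23.5 FPKM in DMSO 1, DMSO 2 and C646 2. At least 1 FPKM was reached by 33, 26 and 28 members in the former and by 5, 3 and 5 members in the latter. The untreated tumors, in separately made tables, had sums of 2831 to 8307 FPKM, and the levels of the 2 experiments were not tested against each other. By the estimate from low FPKM values, DMSO 3 and C646 2 were 1.29 and 1.22 times, and C646 1 and C646 3 0.997 and 0.923 times, as deep as DMSO 1, and the part of depth in these levels was not tested.

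The 7 members outside this pattern were Myh7, Myl2, Myl3, Tnnt1, Tnni1, Tnnc1 and Mb, which are 6 of the 7 slow fiber genes and myoglobin. Myl2 was listed at 0 in all 6 injected libraries and Myh7 and Myl3 in 5 of the 6, so these 3 could not have shown the pattern. Tnnt1 and Tnni1 failed the FPKM filter and left the pattern through a listed 0 in C646 1. Tnnt1 was at 0.264, 0 and 1.45 FPKM in DMSO and 0, 0.211 and 0.293 FPKM in C646. Tnni1 was at 0, 0.222 and 2.31 FPKM in DMSO and 0, 0.197 and 0.262 FPKM in C646. Both were highest in DMSO 3, followed by C646 3. Mb was at 25.4, 9.97 and 32.1 FPKM in DMSO and 17.7, 9.22 and 15.7 FPKM in C646. It was the most abundant member in DMSO 1, DMSO 2 and C646 2, where no fast gene exceeded 1.70 FPKM. Mb overlaps Apol6 on the opposite strand, and the part of Apol6 in these values was not tested. Tnnc1 was at 3.19, 0.757 and 1.24 FPKM in DMSO and 0.408, 1.32 and 1.33 FPKM in C646, highest in DMSO 1, which lacked its fast partner Tnnc2. The log2 fold change of Tnnc1 was -0.66 ± 0.70 (SE, n = 3 per group; limma adjusted p = 0.99). Tmod4 followed the pattern with a narrow range, at 3.46, 3.38 and 4.86 FPKM in DMSO and 4.26, 2.53 and 7.57 FPKM in C646. Eno3 kept 3.38 to 4.56 FPKM in the libraries with little muscle RNA, against 21.2 to 24.2 FPKM in the others.

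**Figure D5:**
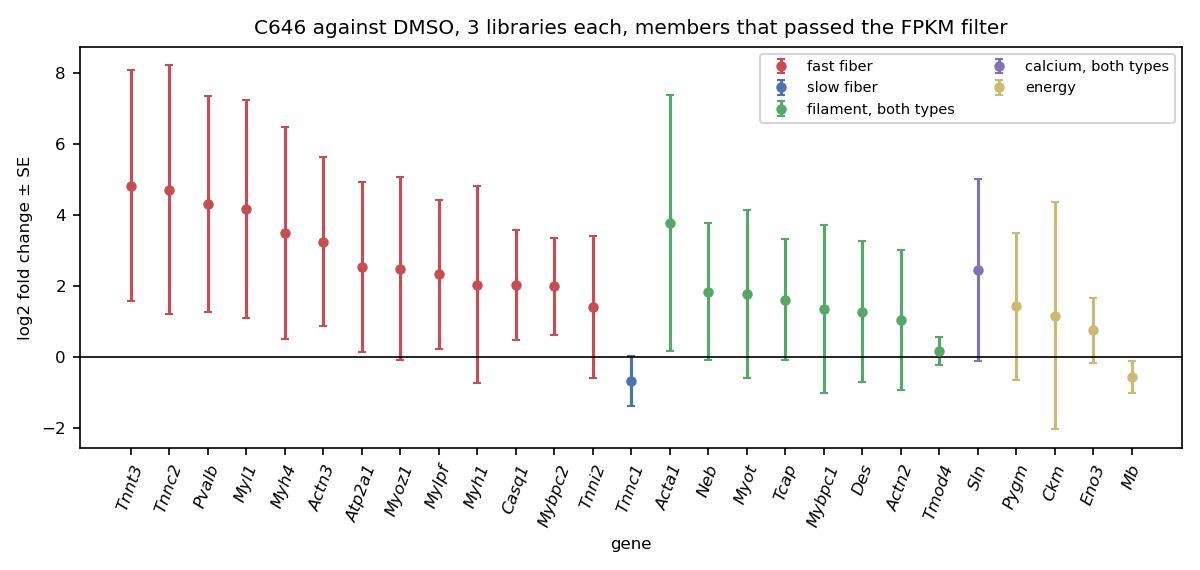
Log2 fold change of C646 against DMSO with its standard error (vertical axis) for the 27 skeletal muscle genes that passed the FPKM filter, colored by role. No gene passed the limma test, and the SE reached 3.60 for Acta1 but was 0.460 for Mb and 0.404 for Tmod4.

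Fast genes also prevailed by these pairs in the injected tumors that held muscle RNA. The calcium pump was not paired, and no fiber type is read from it. Atp2a2 was at 65.9, 78.3 and 78.1 FPKM in DMSO 3, C646 1 and C646 3, where Atp2a1 was at 31.7, 40.9 and 37.5 FPKM. In DMSO 1, DMSO 2 and C646 2, which held little muscle RNA, Atp2a2 was at 81.8, 71.7 and 76.3 FPKM. Its level thus did not follow the muscle RNA, and its source was not tested. The median slow share over the 7 pairs was 1.23% in DMSO 3, 0% in C646 1 and 0.552% in C646 3. In DMSO 1, DMSO 2 and C646 2 only 2, 1 and 2 pairs reached 1 FPKM, and no type could be read. Myh4 made up 81.6% and 79.7% of the 4 adult myosin genes in C646 1 and C646 3. In DMSO 3 it made up 25.4%, and Myh1 66.1%, at 4.98 and 13.0 FPKM. DMSO 3 thus stood apart from the other libraries in its myosin make-up, and also in the basal keratin Krt5, which was at 229 FPKM there and at 8.01 to 35.2 FPKM in the other injected tumors. DMSO 3 also had the largest slow share of calsarcin, 28.0%, from Myoz2 at 1.10 and Myoz1 at 2.84 FPKM.

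Ratios between members were also computed in the libraries that held muscle RNA. Ryr1 was at 0.320, 0.429 and 0.376 of the level of Neb in DMSO 3, C646 1 and C646 3, and at 4.20, 1.77 and 2.87 times Neb in Tumor 1, 2 and 3. Ckm was at 0.241, 0.344 and 0.381 of the level of Acta1 in DMSO 3, C646 1 and C646 3, and at 1.10, 0.372 and 0.632 times Acta1 in Tumor 1, 2 and 3. Sln was at 8.73%, 8.83% and 10.6% of Atp2a1 in DMSO 3, C646 1 and C646 3. The 2 experiments were tabulated separately and from different row sets, so these ratios are set side by side only.

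The adipocyte genes are given beside the muscle genes. The 10 white adipocyte genes had a median log2 fold change of 4.29, and 9 of the 9 tested had an unadjusted p under 0.05, as had 384 of all 12083 genes tested, and limma called 0 of them after adjustment. They summed to 13.6, 75.4 and 56.5 FPKM in DMSO 1, 2 and 3 and to 99.8, 386.5 and 636 FPKM in C646 1, 2 and 3. C646 2 thus held much adipocyte RNA and little muscle RNA, and DMSO 3 the reverse. The part of adipocytes in the muscle values was not tested. Of the 24 further muscle genes, 10 were tested, of which limma called 0 and 1 had an unadjusted p under 0.05. Ldb3, a Z-disc protein on that list, was at 10.04 to 20.06 FPKM in all 6 injected tumors and did not drop in those with little muscle RNA.

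The genes outside the list whose levels most resembled the members were ranked over the 12 libraries by Pearson's r with the mean log2(FPKM + 0.03125) of the members, among 13197 genes. The libraries lie at separate levels and come from 2 sets of tables, so r serves for ranking only. The first was Eef1a2, a translation elongation factor of muscle and neurons (r = 0.996), at 0.845, 0.132 and 0.137 FPKM in normal gland, 41.4, 32.3 and 20.0 FPKM in tumor, 0, 0 and 6.24 FPKM in DMSO and 5.14, 0 and 2.74 FPKM in C646. The M-line gene Myom2 (r = 0.994), the myofibril assembly gene Nrap (r = 0.986) and the calcium release gene Trdn (r = 0.976) were also among the first 10. Smtnl1, Trim54, Smpx, Lmod2 and Rpl3l were among them too, with r from 0.973 to 0.964. Trdn, Smpx, Lmod2 and Myom2 also belong to the list of 24 further muscle genes.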

How the data were processed

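Poly(A) RNA of 12 samples was sequenced from libraries made without strand information. The authors trimmed adaptors with cutadapt, mapped reads to mm10 with TopHat2 2.1.1 and computed FPKM with Cufflinks 2.2.1, and deposited the FPKM of each gene name, with a file for each sample. The gene annotation is not given in the sources used here. The normal and tumor tables have 26220 rows, of which 1837 carry no gene name and were left out, and the DMSO and C646 tables have 24304 rows. Groups and replicate numbers came from the sample labels.

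Rows with the same name were summed. Genes that reached 1 FPKM in 3 or more of the 6 libraries of a comparison were fitted with limma 3.58.1 (R 4.3.3, empirical Bayes with a variance trend) on log2(FPKM + 0.03125), since FPKM values are not counts, and p-values were adjusted by Benjamini-Hochberg over all tested genes at 0.05. Fold changes on this scale understate the change of low genes. Members that failed the filter have a difference of means and no SE. The fit was tested on simulated data. Replicate numbers shared between groups were not used as pairs in the main fit, and whether they pair the DMSO and C646 samples is not settled. The alternatives were other pseudocounts, no filter, median ratio scaling, a replicate block, leaving out each replicate and taking the highest row of a repeated name. Full statistics for C646 against DMSO were given for Ckm, Tnnc2, Sln and the member of highest mean FPKM in each of 5 role lists, and the 10 most similar genes were chosen by Pearson's r, of which 1 is not reported here; other genes named, Krt5 among them, were chosen after their values were seen. The members and lists were chosen with earlier results of these data known. Promoter windows are from RefSeq on GRCm38.p6, with motifs searched by their letters in Python 3.11.15. ChIP-seq and protein data were not analysed here.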

Additional observations from a re-analysis of the deposited data

How the results depend on the processing

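The median log2 fold change of the 40 members in tumor against normal was 5.45, and 3.17 with a pseudocount of 1 and 4.16 with a pseudocount of 0.25, which raises the low normal levels. Leaving out 1 replicate gave 22 to 35 members called higher in tumor: 22 of 22 tested without any one tumor, because 13 others then missed the FPKM filter, and 35 without any one normal library. With no filter on low values 36 of 40 were called higher. The log2 fold change of Ckm in C646 against DMSO was 1.17 with all samples and ranged from -0.037 without DMSO replicate 1 to 4.764 without C646 replicate 2, and none of these passed the test. In C646 against DMSO the median over the members ranged from 0.66 to 3.13 over the samples left out, and 0 members were called under any alternative run; over all genes, 15 were called with no filter and 12 without DMSO replicate 2. A replicate block left 35 members called higher in tumor and 0 in C646 against DMSO. For normal and tumor, same-numbered samples deviated with r from -0.10 to 0.01. For DMSO and C646, r was 0.07 to 0.175 for same-numbered samples and -0.23 to 0.14 for the others. With 3 libraries per group, and DMSO and C646 values of single genes spread from 0 to over 100 FPKM, a difference in the members could be detected only if it exceeded that spread, and the read depth behind each FPKM is unknown.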
